A study of Drosophila melanogaster with 6 samples.

Results

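The Mal-A and Mal-B genes of Drosophila melanogaster encode maltases, and all 10 of them (Mal-A1 to Mal-A8, Mal-B1 and Mal-B2) were read on these arrays, each by 1 probe set, out of 11953 genes that the platform annotation ties to a probe set of their own. Probe sets were found by the current symbol of each gene, after older names (LvpH, LvpD and LvpL for Mal-A1, Mal-A2 and Mal-A3, and CG names) had been brought up to date through gene IDs. The family was chosen on its measured difference between mutant and control larvae and on how far mutant array 1 stood from the other mutant arrays. Both patterns are therefore given here as descriptions. Where the fit across all genes calls a maltase gene, that call follows from the choice of the family and is no independent test of the gene. The arrays hold whole male larvae of the third instar. Mutant larvae had the genotype y+ w roX1- roX2-/ Y with the roX1 allele SMC17A, and control larvae had the genotype y+ w roX1+ roX2-/ Y. The w mutation, y+ and the roX2 mutation were thus common to both groups, and the controls are not wild type at roX2. Each group has 3 arrays, each from its own RNA preparation of 50 larvae.

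Maltases are alpha-glucosidases. They take the last step of starch and sucrose digestion, splitting maltose, sucrose and short glucose chains into single sugars that the midgut can absorb, after amylase has cut the longer chains. The insect genes arose by repeated tandem duplication, so that neighbouring copies encode closely related enzymes, and in Drosophila the amylase and maltase genes are known to be lowered by sugar in the diet. The genes mutated here, roX1 and roX2, make noncoding RNAs that join the complex raising transcription of the male X chromosome. None of the maltase genes lies on X: in the RefSeq annotation Mal-A1 to Mal-A8 stand side by side on arm 2R with no other gene between them, and Mal-B1 and Mal-B2 are adjacent on arm 2L.

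Signals below are intensities on a linear scale, multiplied by 1 factor per array. The factor puts the median autosomal gene among the brighter 50% of probe sets at 100. Differences are given as mean log2 signal of the mutant arrays less that of the control arrays, so a positive value is a higher signal in the mutant. Signals of different probe sets are not comparable with one another, so each gene is compared only with itself across arrays. Sums over a list of genes, given below, are likewise compared only across arrays, and the brightest probe sets weigh most in them. The median of all probe sets lay at 28.0 on this scale, and sizes that rest on signals below it are uncertain. Across 7801 tested genes, arrays of 1 group correlated at 0.972 or higher, and arrays of different groups at 0.889 to 0.926. All 8 listed salivary gland genes, the glue genes of late larvae among them, lay in the brighter 50% of probe sets, as did 7801 of all 11953 named genes. Of 10 male germline genes 6 did so, a share close to that of all genes, and aly, can, nht and dj did not. The roX genes were not analysed here, so the arrays' own signal for the mutated genes does not enter. The number of arrays limits the precision of each value.

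The clearest difference lay in the first 4 genes of the Mal-A row. Mal-A1 to Mal-A4 all had higher mean signals in the mutant, with log2 differences from 1.0 to 4.49 and a median of 1.81. Mal-A5 to Mal-A8, the next 4 genes in the same row, had log2 differences from -0.02 to 0.44 with a median of 0.04. The Mal-B genes stood at -0.17 and 0.37. The median over all 10 was 0.41, beside -0.06 over all tested genes.

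Mal-A3 (CG8695), once called LvpL for a larval visceral protein, had the largest difference of the family. Its scaled signal was 117, 348 and 380 on mutant arrays 1, 2 and 3 and 26.8, 8.97 and 5.68 on control arrays 1, 2 and 3. The groups did not overlap, and the lowest mutant array was 4.38 times the highest control array. Group means were 282 ± 143 (SD, n = 3) in the mutant and 13.8 ± 11.3 (SD, n = 3) in the control, and the log2 difference was 4.49 (SE 0.612), or 22.5-fold. All 3 control signals lay under the median probe set. With signals under that median raised to it the difference was 3.15, and with an offset of 50 added before the logarithm it was 2.27, so its size is uncertain while its direction was the same.

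Mal-A4 (CG8693), the next gene in the row, followed with signals of 82.9, 204 and 160 on mutant arrays 1, 2 and 3. Its control signals were 33.2, 22.1 and 26.5. Again every mutant array lay above every control array, by at least 2.49 times. The means were 149 ± 61.3 and 27.3 ± 5.59 (SD, n = 3 each), a log2 difference of 2.37 (SE 0.309), or 5.18-fold, which came to 1.32 with the offset of 50. Control arrays 2 and 3 lay under the median probe set.

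Mal-A1 (CG8696), the first gene of the row, had mutant signals of 75.4, 126 and 87.0 and control signals of 68.2, 43.9 and 34.2. These groups only just separated: mutant array 1 was 1.11 times control array 1. The means were 96.1 ± 26.4 and 48.8 ± 17.5 (SD, n = 3 each), and the log2 difference of 1.0 (SE 0.268), 2.00-fold, came to 0.56 with the offset. It was not called when control array 2 was left out, although its log2 difference was then 0.96.

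Mal-A2 (CG8694) lies between Mal-A1 and Mal-A3. It gave 20.2, 38.9 and 43.7 in the mutant against 22.9, 12.3 and 9.17 in the control. Mutant array 1 was below control array 1, so the groups overlapped. The log2 difference was 1.24 (SE 0.379), or 2.37-fold, but 4 of its 6 signals lay under the median probe set and the difference was 0.37 with the offset.

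**Figure D1:**
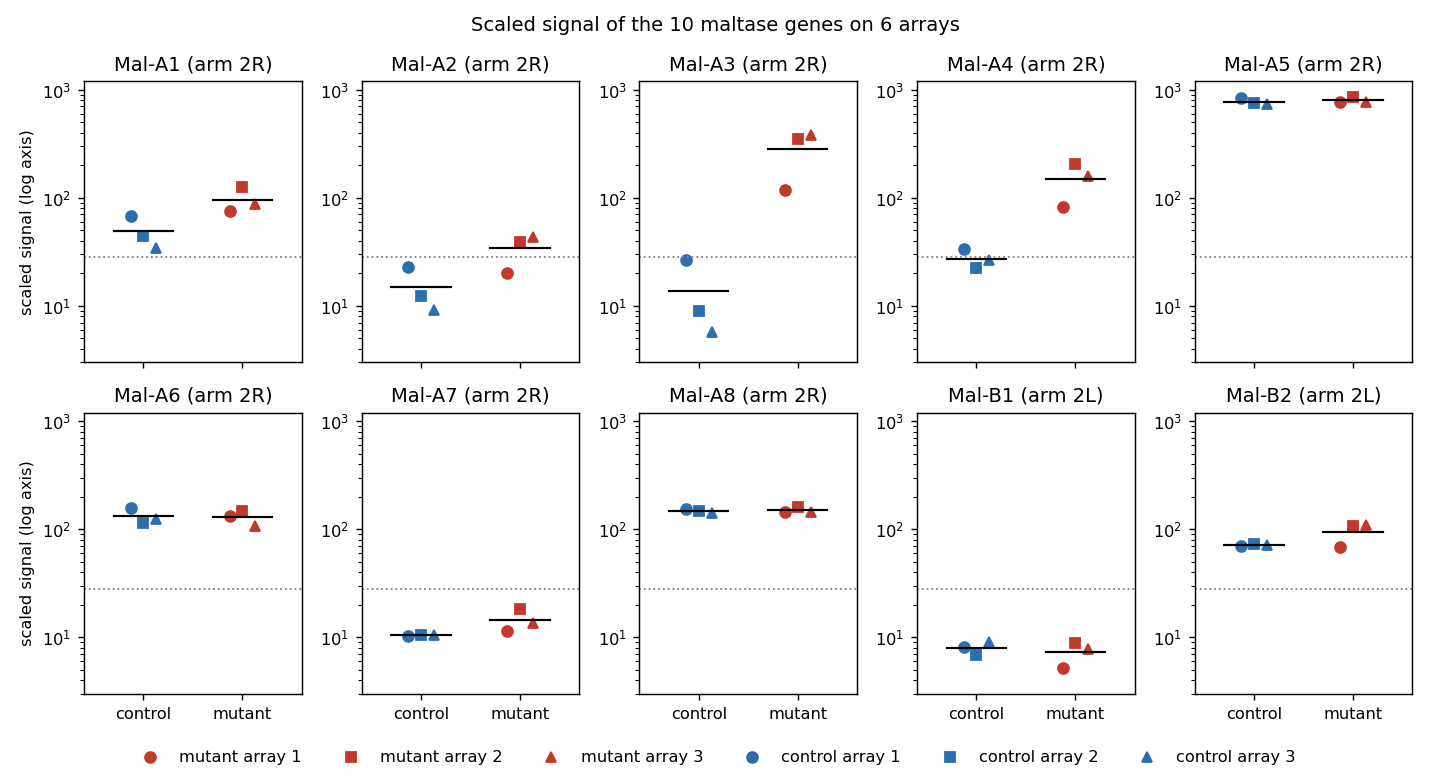
Scaled signal (log axis) of each maltase gene in 3 control arrays (blue) and 3 mutant arrays (red), with the marker shape giving the array number, black lines the group means and the dotted line the median of all probe sets (28.0). Heights are not comparable between panels. Mutant and control points are apart for Mal-A3 and Mal-A4 and nearly level for Mal-A5, Mal-A6 and Mal-A8.

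Mal-A5 to Mal-A8 showed little difference between the groups. Mal-A5 gave 773, 861 and 772 in the mutant against 831, 756 and 739 in the control, a log2 difference of 0.05 (SE 0.0763). Mal-A8, the last gene of the row, gave 145, 162 and 143 against 155, 147 and 141, a difference of 0.02 (SE 0.0862). For both genes the ranges overlapped, and the SD of log2 signal within a group was at most 0.099, so that a difference of the size seen in Mal-A1 would have stood far outside it. Mal-A6 was as level but less tightly measured, with 134, 149 and 108 in the mutant against 156, 114 and 125 in the control (log2 -0.02, SE 0.153). Mal-A5 and Mal-A6 share the older name CG8689, but each has a probe set and a gene ID of its own here.

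Mal-A7 differed slightly and only at low signal. It gave 11.5, 18.2 and 13.6 in the mutant against 10.3, 10.5 and 10.5 in the control, a log2 difference of 0.44 (SE 0.189) with mutant arrays above control arrays. All 6 signals were under the median probe set, and with the offset the difference was 0.09.

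Of the Mal-B pair, only Mal-B2 was above the median probe set. Mutant arrays gave 68.1, 107 and 109, control arrays 69.9, 73.2 and 71.8, which gave a log2 difference of 0.37 (SE 0.173). Mutant array 1 lay below all 3 controls, whereas mutant arrays 2 and 3 lay above them. Mal-B1 gave 5.22, 8.88 and 7.77 against 8.23, 6.87 and 9.03 (log2 -0.17, SE 0.246), with all 6 signals low and the groups overlapping.

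Of the 10 genes, 7 were in the brighter 50% of probe sets by mean log2 signal and entered the test of all 7801 genes. Mal-A2, Mal-A7 and Mal-B1 did not. Mal-A3 and Mal-A4 entered through their mutant arrays: all control signals of Mal-A3 and those of Mal-A4 on control arrays 2 and 3 were below the median probe set, so both had to differ to enter. Of the 7, limma called 3 higher in the mutant (Mal-A1, Mal-A3 and Mal-A4, Benjamini-Hochberg adjusted p under 0.05) and 0 lower (0 also at an unadjusted p under 0.05). Of all tested genes 23.1% were called higher and 32.4% lower. Without the signal filter all 10 could be tested, and Mal-A2 was called as well, so that 4 of 10 were called higher, beside 17.6% of 11953 genes. All 3 mutant arrays lay above all 3 control arrays for 4 of the 10 (Mal-A1, Mal-A3, Mal-A4 and Mal-A7), beside 22.2% of the same 11953 genes. Since the family was picked on this contrast, these calls are not evidence about its members, and nothing is read from the shares. In whole larvae a change in the number of cells that express a gene and a change in RNA per cell cannot be told apart.

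Array 1 of each group lay towards the other group in the first 4 Mal-A genes. Mutant array 1 was the lowest of the mutant arrays for each of Mal-A1 to Mal-A4, and control array 1 the highest of the control arrays for each of them. For Mal-A3 mutant array 1 stood 1.63 below the mean of mutant arrays 2 and 3 on the log2 scale, and control array 1 stood 1.91 above the mean of control arrays 2 and 3. For Mal-A2 these gaps were -1.03 and 1.11, for Mal-A4 -1.13 and 0.46, and for Mal-A1 -0.47 and 0.81. Over all 7801 tested genes the gap of mutant array 1 had a median of 0.02, with 95% of genes between -0.70 and 0.51, and that of control array 1 had a median of 0.00, with 95% between -0.38 and 0.46. These ranges come from brighter genes than Mal-A2 and the control side of Mal-A3, and the family was chosen partly on its mutant gap, so they are given for scale alone. In Mal-A5 and Mal-A8 the mutant gaps were -0.08 and -0.07 and the control gaps 0.15 and 0.10. Mal-B2 had a mutant gap of -0.66 and a control gap of -0.05. Each side of the pattern was also seen in other members. The mutant gaps of Mal-A7 and Mal-B1 were -0.46 and -0.67, and the control gap of Mal-A6 was 0.39. Of all 10 members, mutant array 1 was the lowest mutant array in 7 and control array 1 the highest control array in 7. The share of all genes with this order was not counted.

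**Figure D2:**
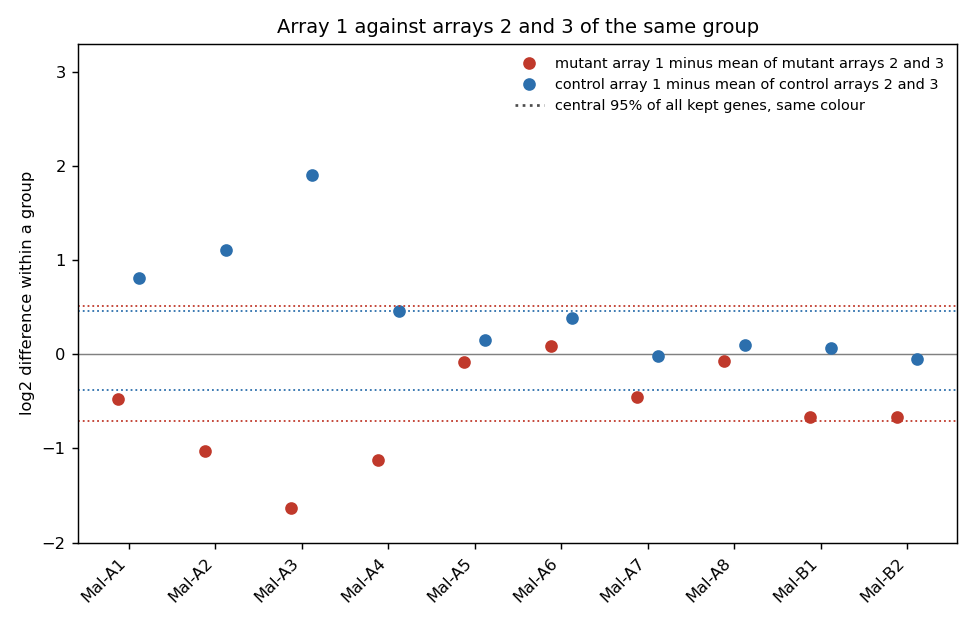
For each maltase gene, the log2 signal of array 1 minus the mean of arrays 2 and 3 of the same group, in the mutant (red) and the control (blue). Dotted lines enclose the central 95% of all tested genes in the same colour, for scale. The gaps of Mal-A3 are -1.63 in the mutant and 1.91 in the control.

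With mutant array 1 and control array 1 both left out, a choice made after the data were seen, the Mal-A3 difference was 5.67, that of Mal-A4 2.90 and that of Mal-A1 1.43. The genes called were then Mal-A1, Mal-A3, Mal-A4 and also Mal-B2 (0.57). Mal-B2 was called as well without mutant array 1 alone (0.59) and without rescaling (0.49). The muscle markers had an array order of the same kind: the median log2 deviation of 7 tested muscle genes from the control mean was 0.41 on mutant array 1, 0.87 and 0.78 on mutant arrays 2 and 3, and 0.18, -0.12 and -0.08 on control arrays 1, 2 and 3. This order was not particular to muscle. With smaller gaps, the fat body, salivary gland and Malpighian tubule medians also had mutant array 1 lowest and control array 1 highest. The medians of the midgut and male germline lists did not have both. The part of tissue content in the array order of the maltase genes was not tested.

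Midgut markers were set beside the maltases because the larval midgut is where these enzymes act. Of 36 listed digestive enzyme genes and gut-secreted proteins (trypsins, Jonah proteases, lysozymes and others), 28 had a probe set and all 28 were tested: 5 were called higher, 4 lower and 19 were not called, with a median log2 difference of 0.10. Both counts are smaller shares than the 23.1% and 32.4% over all tested genes. Their summed signal ran from 29894 to 34247 on the mutant arrays and from 30743 to 32276 on the control arrays, so the groups overlapped. On mutant array 1 the median deviation of this list was -0.06, against 0.20 and 0.04 on mutant arrays 2 and 3. The called trypsin genes were lambdaTry (3.77), kappaTry (1.67), zetaTry (0.78) and thetaTry (0.68), and the protease gene Jon99Fi was called at 0.26. The genes called lower were Npc2e (-1.04) and Npc2d (-0.74), of the sterol-binding Npc2 family, the lysozyme gene LysS (-0.26) and the protease gene Jon65Aiii (-0.17). Of 14 genes that mark midgut cells, 9 had a probe set and 8 were tested, of which 4 were called higher (Vha100-4, a proton pump subunit, at 1.26, with cad, nub and PGRP-SC2 at 0.34 to 0.41) and 1 lower (Mip, a gut and brain peptide, at -0.82). mex1, a gene named for midgut expression, stood at 0.02 (limma adjusted p = 0.856). The summed signal of the 9 ran from 2586 to 2900 in the mutant and from 2223 to 2401 in the control, without overlap. PGRP-SC2 made up most of this sum on every array, with 1529 to 1773 in the mutant against 1162 to 1355 in the control. The sum thus mainly carries that gene. NPF, which was not tested, was lower, with 12.0 to 13.9 in the mutant against 20.8 to 26.0 in the control. Every control signal of lambdaTry and Vha100-4 lay under the median probe set (28.0), and those of kappaTry lay near or under it. These genes entered the test through their mutant arrays, so they had to differ to be tested, like Mal-A3 and Mal-A4. No gene of either list had a deposited value at or below 0. The part of midgut content in the maltase differences was not tested.

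Marker lists of other tissues are given beside the same shares of all genes, 23.1% called higher and 32.4% lower. Of 8 salivary gland genes 6 were called lower, and the summed signal of the list ran from 14385 to 14848 in the mutant and from 17620 to 18005 in the control. Sgs4, which lies on X, fell most (-0.68 on the log2 scale), with 2003 to 2263 in the mutant against 3302 to 3480 in the control. Eig71Ee stood at -0.41, and Sgs3, Sgs5, Sgs7 and Sgs8 at -0.23 to -0.15. The part of X location in the fall of Sgs4 was not tested. Of 7 tested Malpighian tubule genes 4 were called higher and 3 were not called (summed signal 1698 to 1884 against 1304 to 1342), and of 7 tested muscle genes likewise 4 were higher and 3 not called (4082 to 5914 against 3330 to 4035). The tubule sum mainly carries Fst, with 1049 to 1148 in the mutant against 781 to 819 in the control. Of 7 fat body genes 3 were called higher and 2 lower (9838 to 11545 against 10157 to 10393). Of 6 tested male germline genes 3 were called higher and 1 lower. The male germline sum, over 10 genes with a probe set, was 3047 to 3570 against 2682 to 3061. It mainly carries the Mst genes, which gave 430 to 927, beside 63.8 or lower for the other genes of that list. Among the untested ones, aly, can and nht lay lower on every mutant array than on any control array, and dj overlapped. Salivary gland and Malpighian tubule sums separated the groups without overlap, as did muscle narrowly, whereas those of fat body and male germline overlapped. No listed gene was at or below 0, and the part of these tissues in the maltase differences was not tested.

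Of 5 tested genes on either side of the clusters limma called 0 higher (0 also at an unadjusted p under 0.05) and 1 lower, beside 23.1% and 32.4% of all tested genes, too few to set the neighbourhood apart. The 5 nearest genes on each side of each cluster were taken from the RefSeq order. Around Mal-A, 6 of these 10 had a probe set and 4 were tested. Of the 4, CG12780, which carries the older name GNBP-like, fell by 0.77 on the log2 scale (SE 0.0961, limma adjusted p = 0.000465). It gave 66.5, 60.2 and 55.9 in the mutant against 97.8, 111 and 103 in the control. The cytochrome P450 genes Cyp4ad1 (0.31), Cyp4e2 (0.03) and Cyp6a14 (-0.32) did not pass, though Cyp4ad1 passed without mutant array 1 (0.47), with array 1 of both groups left out (0.50) and without rescaling (0.44), and Cyp6a14 without mutant array 2 (-0.46).

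Cyp4e1, the gene next to Mal-A1 on the outer side, is a further cytochrome P450 gene and lay under the signal filter. Mutant arrays gave 12.9, 22.5 and 24.3, control arrays 9.37, 6.83 and 6.48. Mutant arrays were above control arrays, with mutant array 1 lowest and control array 1 highest in their groups as for Mal-A1 to Mal-A4. In the fit without the filter its log2 difference was 1.36 (limma adjusted p = 0.00427). mtt, next to Mal-A8 on the other side, encodes a glutamate receptor-like protein and was at 5.48 or lower on every array.

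Around Mal-B, 5 of 10 neighbours had a probe set and only CG44008 was tested (log2 -0.11, limma adjusted p = 0.274). Without the filter CG31704 was called higher (1.01, limma adjusted p = 0.00363). The odorant receptor genes Or33a, Or33b and Or33c, beyond Mal-B2, had signals of 10.3 or lower on all arrays.

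**Figure D3:**
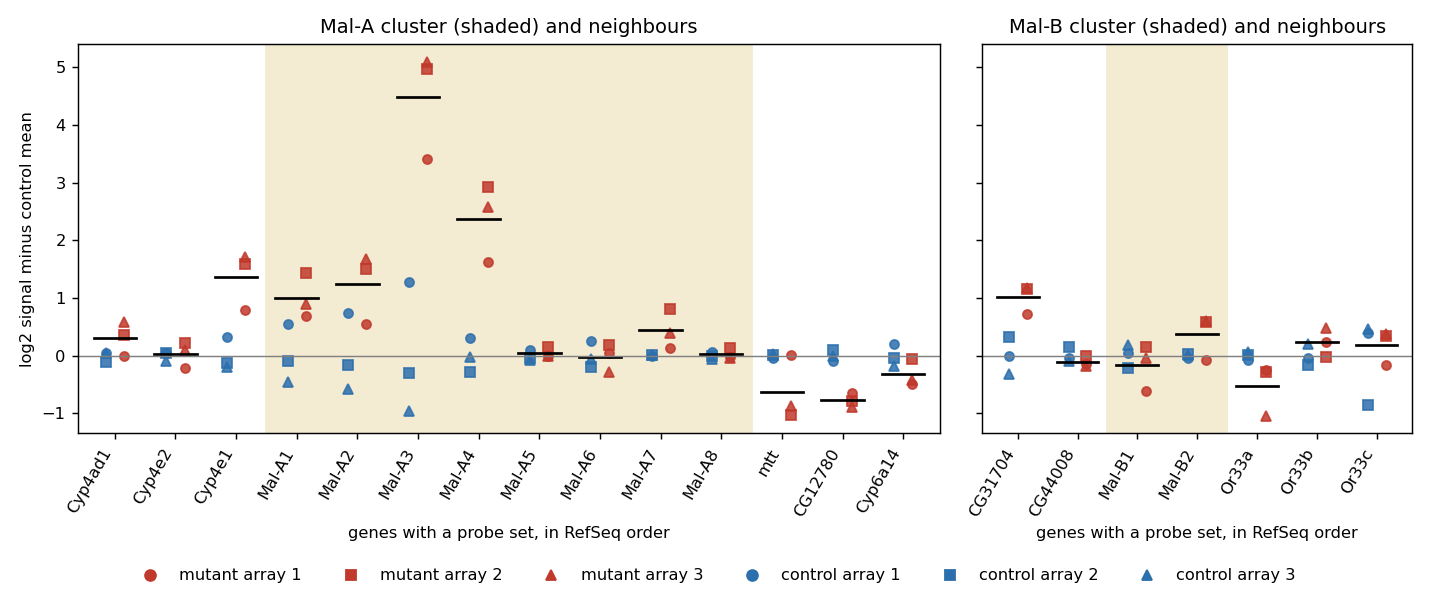
Log2 signal minus the control mean for the genes with a probe set in and around the Mal-A cluster (left) and the Mal-B cluster (right), in RefSeq order and not to scale. Shading marks the maltase genes, points are single arrays and black lines are the mean mutant differences; the high values run from Cyp4e1 to Mal-A4 and peak at Mal-A3 (4.49), while Mal-A5, Mal-A6 and Mal-A8 lie near 0.

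Other genes of sugar digestion and handling changed in both directions. Over 3 lists of related genes, 28 of 32 genes had a probe set and 24 were tested, of which limma called 11 higher and 5 lower, beside the 23.1% and 32.4% of all genes given above. The lists were drawn up with earlier results of these data known. The count of higher genes was 7 without control array 1.

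Relatives of the maltases in sequence or task were called higher in 5 of 7 cases and lower in 0 (0 also at an unadjusted p under 0.05), with a median log2 difference of 0.24. The shares of all tested genes were 23.1% and 32.4%. AGBE, the glycogen branching enzyme, rose most: mutant arrays gave 111, 183 and 145, control arrays 52.3, 50.2 and 47.8, a log2 difference of 1.52 (SE 0.165, limma adjusted p = 0.000274). CG6262, a trehalase-like gene, rose by 1.18 (SE 0.137, adjusted p = 0.000349 by limma). GCS2alpha, a subunit of the glucosidase that trims glycoproteins in the endoplasmic reticulum, was higher by 0.23, and CD98hc, an amino acid transporter chain whose outer part resembles a maltase, by 0.24. Neither passed with array number as a replicate block (adjusted p = 0.0806 and 0.0607 by limma), and neither passed without mutant array 2, control array 1 or control array 2; CD98hc also did not pass without mutant array 3.

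Of the digestive enzymes and sugar-regulated relatives, Amyrel, an amylase-related gene, stood at 0.01 (limma adjusted p = 0.985). Mutant arrays gave 51.9, 75.6 and 85.4, control arrays 111, 51.7 and 57.5. Here too array 1 of each group lay towards the other group, and with both left out Amyrel was called higher (0.56, limma adjusted p = 0.00255). tobi, an alpha-glucosidase gene regulated by insulin and glucagon-like hormones, lay under the signal filter with 9.14, 23.1 and 23.4 in the mutant against 11.7, 3.89 and 4.12 in the control. Mutant array 1 was thus below control array 1 in tobi, as in Mal-A2. Treh, the trehalase that splits the main blood sugar of insects, stood at 0.12 (limma adjusted p = 0.194). The amylase genes Amy-p and Amy-d have no probe set of their own in the annotation and were not analysed here.

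Among sugar transporters 2 of 7 were called higher and 3 lower, beside 23.1% and 32.4% of all tested genes, with a median of -0.08. Tret1-1, a trehalose transporter, rose by 0.67 (SE 0.0917, limma adjusted p = 0.00068), from 310 to 363 in the control to 495 to 578 in the mutant. Glut1, a glucose transporter gene, fell by 0.94 on the log2 scale (limma adjusted p = 0.000734), nebu by 0.74 and sut1 by 0.41. sut1 did not pass without control array 3 (limma adjusted p = 0.0536) or with array 1 of both groups left out (-0.29, limma adjusted p = 0.0563).

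Regulators of the sugar response were called higher in 4 of 10 cases and lower in 2, with a median of 0.19. The shares of all tested genes were again 23.1% and 32.4%. sug (sugarbabe), a sugar-induced zinc finger gene known to lower digestive enzyme expression, had signals of 177, 207 and 253 in the mutant against 82.2, 69.8 and 56.5 in the control, a rise of 1.61 (SE 0.168, limma adjusted p = 0.000242). Hnf4, a nuclear receptor gene of lipid and sugar metabolism, rose by 0.49. cbt (cabut), a transcription factor gene downstream of Mondo, fell by 0.54, and Smox, the Smad of the activin branch, fell by 0.59. Among the called genes of the related lists, only Smox and GCS2alpha, which was higher, lie on X. The part of X location in their differences was not tested. Mutant and control arrays did not overlap for sug, and mutant array 1 was its lowest mutant array and control array 1 its highest control array, the order also seen in Mal-A1 to Mal-A4.

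**Figure D4:**
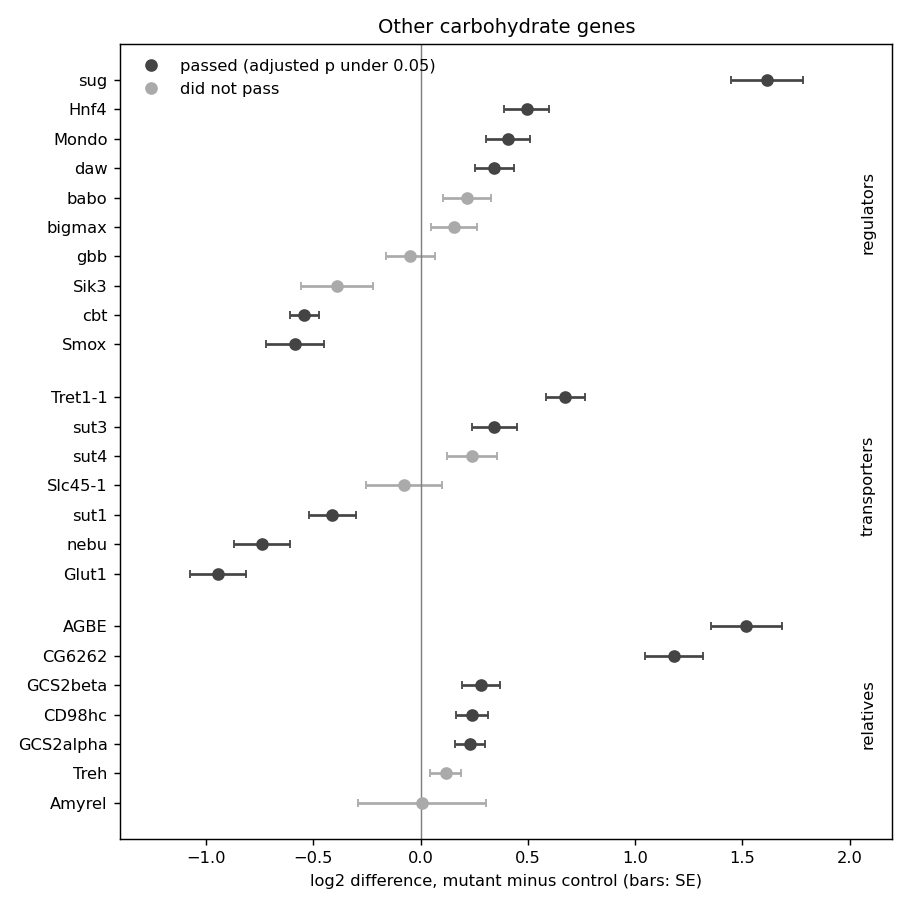
Log2 difference between mutant and control (points, with SE as bars) of 24 tested genes in 3 lists: relatives of the maltases, sugar transporters and regulators of the sugar response. Dark points passed limma's test; AGBE (1.52) and sug (1.61) lie farthest to the right and Glut1 (-0.94) farthest to the left.

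The genes whose log2 signal followed Mal-A3 most closely over the 6 arrays were Tat, the tyrosine aminotransferase gene (Pearson r = 0.998), CG17109 (0.998), Exo84, an exocyst subunit gene (0.998), CG7296 (0.997) and Elp3, the catalytic subunit gene of Elongator (0.996). These r values are descriptions over 2 separate groups of arrays, so they carry both the group difference and the order of arrays within a group. Each of the 5 genes had mutant array 1 lowest and control array 1 highest in its group, like Mal-A3. Of the 7800 other tested genes, 9.92% reached 0.9. Tat gave 51.0, 72.1 and 74.0 in the mutant against 34.0, 22.8 and 21.8 in the control. CG7296 gave 370, 814 and 724 against 172, 78.1 and 72.8, and Exo84 differed by 0.21, which did not pass. Mal-A4 came 142nd in this order (r = 0.973), Mal-A1 451st (0.938) and Mal-A5 2509th (0.545).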

How the data were processed

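The authors deposited linear intensity for each probe set, 1 column for each single-colour Affymetrix Drosophila Genome 2.0 array and 3 arrays per genotype. The submitters' processing notes name GCOS 1.2, and the series' design text says that genes were filtered by comparing perfect match with mismatch probes and that the autosomal median was brought to 100. The deposited columns were not on that scale. How probes were summarised is not stated in those texts, and no detection calls were used. Groups and array numbers came from the sample titles.

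Probe sets with exactly 1 gene (13647, after 183 control probe sets were left out) were named through the platform annotation and RefSeq genes (Release 6 plus ISO1 MT, used for names and gene order). The upper 50% by mean log2 signal were kept, each gene was represented by its brightest probe set (7801 genes), non-positive values were raised to the lowest positive value on their array, and each array was rescaled by 1 factor (0.246 to 0.280). Genes were fitted with limma 3.58.1 in R 4.3.3 with group as the only term, eBayes with trend, and passed at an adjusted p under 0.05. The fit was tested on simulated data.

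The members, lists and rules were chosen with earlier results of these data known. Named genes were all members, the neighbours, the 5 genes most like Mal-A3, and at most 4 passing genes of each list by smallest p; Amyrel, Treh, tobi, mex1 and the midgut genes were named after their values were seen. The labels do not say whether the preparations came from separate cultures, so p-values measure the spread between these arrays. Array numbers were not treated as pairs in the main fit. Deviations from group means correlated at -0.34, -0.06 and -0.38 between arrays of the same number. Mutant array 1 with control array 3 gave 0.51. With 3 arrays per group these values are tied to one another and cannot settle whether arrays were paired.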

Additional observations from a re-analysis of the deposited data

How the results depend on the processing

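Over 18 alternatives (filter, scaling, offset, probe set choice, variance model, replicate block, each array left out, and the 2 added later), 2 to 4 maltase genes were called higher and 0 lower, and Mal-A3 and Mal-A4 were called in each. Mal-A3 ran from 2.27 (offset of 50) to 5.67 (array 1 of both groups left out). Mal-A1 was lost without control array 2, where 2 maltase genes were called. Without rescaling the median of all genes was 0.07 in place of -0.06, and calls split 58.5% higher in place of 41.7%. With the replicate block 3 maltase genes were called, as in the main result, and 8 related sugar genes were higher in place of 11. Leaving out 1 array gave 7 to 11 related genes higher. Of the cluster neighbours, 1 was called in the main result. With no signal filter 3 were called and with the upper 75% kept 3, where more neighbours were tested. Without rescaling 2 were called, with array 1 of both groups left out 2, and on leaving out 1 array 1 to 2. The gene added without rescaling or with arrays left out was Cyp4ad1, or Cyp6a14 without mutant array 2. Those added without the signal filter were Cyp4e1 and CG31704. Why they passed there was not tested. Low signal limits Mal-A2, Mal-A7, Mal-B1 and the control side of Mal-A3 and Mal-A4.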
